A study of Mus musculus with 4 samples.

Results

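The genes described here are 10 genes of hepatic gluconeogenesis and glycogen metabolism, chosen by symbol from a deposited table of 21827 gene entries, and all 10 were found. They encode the gluconeogenic enzymes Pck1, Pcx, Fbp1 and G6pc, the transcriptional coactivator Ppargc1a, the glycogen synthesis enzymes Gys2 and Gbe1, the glycogen phosphorylase Pygl, and the phosphatase targeting subunits Ppp1r3b and Ppp1r3c. Their levels were compared between male and female liver of untreated CD-1 mice, an outbred stock, at 8 weeks of age. Poly-A-enriched, strand-specific libraries had been made from 2 male and 2 female RNA pools, each of 6 livers, so that 12 livers stand behind each sex. The table combines the pools of a sex into 1 value for each gene, so no error between pools can be given. The labels give neither the feeding state of the mice nor the time of day at which livers were taken.

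The liver keeps blood glucose up between meals by breaking down its glycogen store and by making glucose from lactate, amino acids and glycerol. Gluconeogenesis bypasses the irreversible steps of glycolysis with separate enzymes, and hormones set much of its rate through transcription of Pck1 and G6pc: glucagon raises it through cyclic AMP and the factor CREB, and insulin lowers it through the forkhead factor FOXO1. Glycogen synthase and phosphorylase are switched instead by phosphorylation. Targeting subunits bring protein phosphatase 1 to the glycogen particle, where it activates the synthase and inactivates the phosphorylase.

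Upstream sequences are shown for 4 of the genes, the hormone-controlled Pck1 and G6pc and the sex-different Gbe1 and Ppp1r3c, to set the control regions of 2 genes that hormones are known to switch beside those of 2 genes that differed between the sexes here. Each is the 150 bases before the RefSeq start site (GRCm38.p6), 5′ to 3′ on the gene's strand. They lie at chr2:173152923-173153072 on the plus strand for Pck1, at chr11:101367566-101367715 on the plus strand for G6pc, at chr16:70313799-70313948 on the plus strand for Gbe1 and at chr19:36736605-36736754 on the minus strand for Ppp1r3c. Capitals mark matches, on either strand, to the motifs searched, which were TGACG (the half-site of the cyclic AMP response element, bound by CREB), GTAAACA (bound by forkhead factors), TATAAA (the TATA box) and TTCNNNGAA (bound by STAT5).
Pck1: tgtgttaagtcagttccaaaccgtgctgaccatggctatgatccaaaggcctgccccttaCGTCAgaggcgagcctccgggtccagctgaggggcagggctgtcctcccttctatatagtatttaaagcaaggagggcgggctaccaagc
G6pc: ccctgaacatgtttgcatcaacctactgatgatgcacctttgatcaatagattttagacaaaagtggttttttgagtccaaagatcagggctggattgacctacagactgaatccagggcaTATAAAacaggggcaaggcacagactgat
Gbe1: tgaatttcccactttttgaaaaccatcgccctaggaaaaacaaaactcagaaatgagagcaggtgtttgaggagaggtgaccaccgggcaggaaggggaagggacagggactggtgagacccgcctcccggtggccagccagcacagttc
Ppp1r3c: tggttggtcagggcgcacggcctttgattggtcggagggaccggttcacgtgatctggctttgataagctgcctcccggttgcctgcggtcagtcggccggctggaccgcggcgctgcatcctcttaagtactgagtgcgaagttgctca

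The Pck1 match, CGTCA, is the half-site on the other strand and begins 90 bases before the start. G6pc holds a TATA box that begins 29 bases before the start. In the 250 bases searched, Gbe1 and Ppp1r3c hold no match to these letters. Of 32851 mouse promoters searched over the same 250 bases, 17.8% hold TGACG, 12.4% TATAAA, 7.02% TTCNNNGAA and 3.17% GTAAACA. The same half-site stands 44 bases before the start of Pygl and 49 bases before that of Ppargc1a. Sequences were matched for 8 of the 10 genes; Gys2 and Ppp1r3b are the others.

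Among these 10 genes, those called as different between male and female liver were 4 of the 5 glycogen genes, and none of the 5 genes of gluconeogenesis was called. Gys2 and Gbe1 were higher in male liver, by 1.93-fold and 1.59-fold, and Ppp1r3c and Ppp1r3b were higher in female liver, by 1.76-fold and 1.68-fold, per the authors' deposited table. Pck1, Pcx, Fbp1, G6pc, Ppargc1a and Pygl did not pass an adjusted p of 0.05 per the authors' deposited table. In bulk RNA, fewer cells of a type and less RNA per cell cannot be told apart. All 10 genes were among the 13763 entries that had a ratio between the sexes, called compared genes below, and all 10 had a log2 RPKM (read density scaled to transcript length and library depth) of at least 1 in either sex. Of the compared genes, 7.21% passed that threshold with male liver higher and 10.2% with female liver higher, 17.4% in either direction, against 2, 2 and 4 of the 10 genes. The same 4 genes also had an adjusted p under 0.01, at which 4.16% of compared genes were higher in male liver, 6.05% in female liver and 10.2% in either. The 10 genes had a median normalized log2 ratio, male over female, of 0.02, against -0.02 over all compared genes. Their median size of difference, without regard to sign, was 0.28 on the log2 scale, against 0.27.

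**Figure D1:**
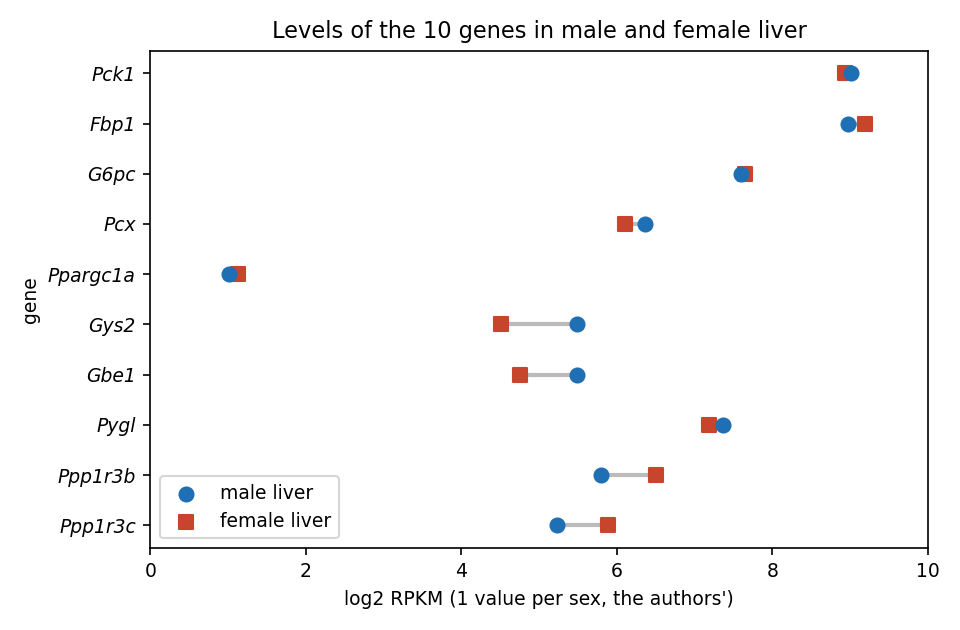
Levels of the 10 genes as log2 RPKM (horizontal axis), with male liver as circles and female liver as squares, 1 value per sex as deposited and no error bars because pools are not separated. The symbols of Gys2, Gbe1, Ppp1r3b and Ppp1r3c stand well apart, while those of Pck1, G6pc and Ppargc1a touch.

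Gys2, the liver isoform of glycogen synthase, which lengthens glycogen chains (chromosome 6, 142371133 to 142421629, minus strand, mm9), had a log2 RPKM of 5.49 in male liver and 4.51 in female liver, or 44.8 and 22.7 RPKM. The normalized log2 ratio was 0.95 with an adjusted p of 1.75e-06 per the authors' deposited table. The levels imply about 1338 reads in male and 888 in female liver, and counting alone allows a male over female ratio between 1.81 and 2.15 (95% exact Clopper-Pearson interval, which covers counting error and neither mice nor pools). Of 1194 compared genes within 0.5 log2 units of its mean level, 28, or 2.35%, had a larger ratio in either direction. Gys2 ranked 1323rd of all entries by level in male liver and 2451st in female liver.

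Gbe1, the branching enzyme, which adds the side chains of glycogen (chromosome 16, 70314332 to 70569961, plus strand, mm9), stood at 45.1 RPKM in male liver and 26.9 RPKM in female liver. In log2 RPKM these are 5.49 and 4.75. Its normalized log2 ratio was 0.67 with an adjusted p of 0.000632 per the authors' deposited table. Counting alone, on about 1511 male and 1182 female implied reads, allows a ratio between 1.55 and 1.81. The synthase and the branching enzyme were thus at nearly the same level in male liver, with Gbe1 at 1.01 times Gys2, and at 1.18 times Gys2 in female liver, both per length.

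Ppp1r3b, the subunit known as GL that is the main glycogen-targeting subunit of liver (chromosome 8, 36438795 to 36451191, plus strand, mm9), had a log2 RPKM of 5.80 in male liver and 6.50 in female liver, or 55.8 and 90.4 RPKM. The normalized log2 ratio was -0.75 with an adjusted p of 7.32e-05 per the authors' deposited table. Implied reads numbered about 2645 and 5619, and counting alone allows a level 1.55 to 1.70 times as high in female liver. It had the most reads of the 4 sex-different genes in both sexes.

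Ppp1r3c, a more widely expressed targeting subunit known as PTG (protein targeting to glycogen; chromosome 19, 36806224 to 36811143, minus strand, mm9), reached 37.5 RPKM in male liver and 59.4 RPKM in female liver. In log2 RPKM these are 5.23 and 5.89. Its normalized log2 ratio was -0.81 with an adjusted p of 2.41e-05 per the authors' deposited table, whereas the plain difference of the log2 RPKM values was -0.67. Counting alone allows a level 1.48 to 1.70 times as high in female liver, and the authors' 1.76-fold lies outside that interval, which uses implied depth in place of the authors' normalization. Both targeting subunits kept nearly the same proportion to each other, with Ppp1r3b at 1.49 times Ppp1r3c in male and 1.52 times in female liver.

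Because the synthase and the targeting subunits differed in opposite directions, their proportions differed between the sexes, and Ppp1r3c stood below Gys2 in male liver and above it in female liver. Ppp1r3b stood at 1.24 times Gys2 in male liver and at 3.98 times Gys2 in female liver, per length. Ppp1r3c stood at 0.836 times Gys2 in male liver and at 2.61 times in female liver. These proportions follow from the 2 levels per sex and were not tested as such. Ranked from highest to lowest among the 10 genes, Ppp1r3c was 9th in male and 7th in female liver, whereas Gys2 was 8th in male and 9th in female liver. The places of Gys2 and Gbe1 in male liver are not separated by counting error, with 95% exact Poisson intervals of 42.4 to 47.3 RPKM for Gys2 and 42.8 to 47.4 RPKM for Gbe1.

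Pygl, liver glycogen phosphorylase, which releases glucose 1-phosphate from glycogen (chromosome 12, 71291806 to 71332475, minus strand, mm9), had a log2 RPKM of 7.36 in male liver and 7.19 in female liver. Its normalized log2 ratio was 0.14 with an adjusted p of 0.453 per the authors' deposited table. Per length, Pygl was the most abundant of the 5 glycogen genes in both sexes, at 3.67 times Gys2 in male and 6.43 times Gys2 in female liver.

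**Figure D2:**
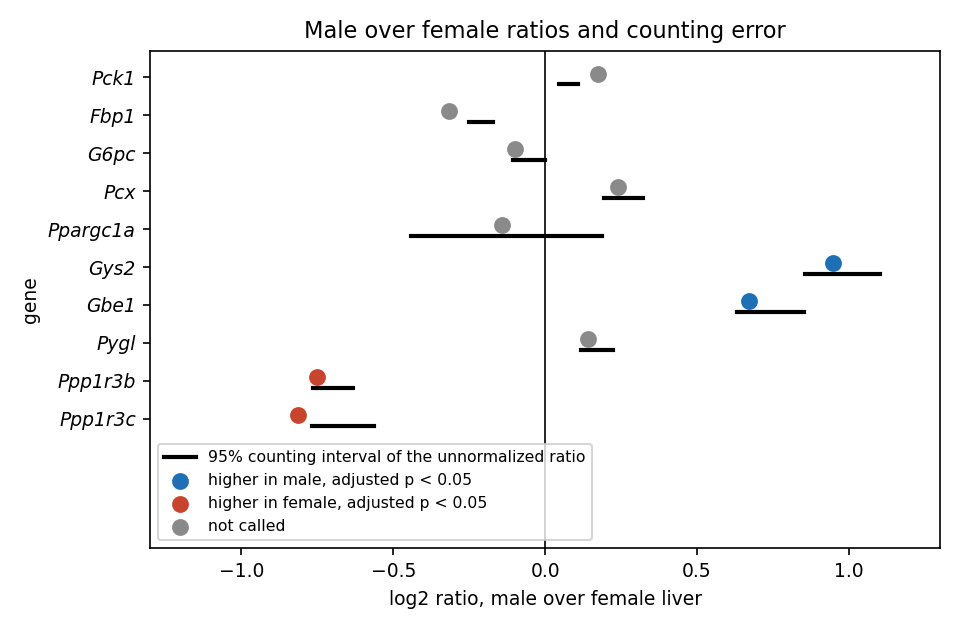
Log2 ratios of male over female liver for the 10 genes (horizontal axis). Points are the authors' normalized ratios, coloured by call at an adjusted p of 0.05, and black bars are 95% counting intervals of the unnormalized ratio of implied reads, which cover no error between mice or pools; the 4 called genes lie beyond 0.67 in size and the 6 others within 0.32.

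The 4 gluconeogenic enzymes were abundant in both sexes, and their normalized ratios lay between -0.32 and 0.24 on the log2 scale. Pck1, cytosolic phosphoenolpyruvate carboxykinase, which makes phosphoenolpyruvate from oxaloacetate (chromosome 2, 172978574 to 172984754, plus strand, mm9), had 515 RPKM in male liver and 488 RPKM in female liver. Its normalized log2 ratio of 0.17 had an adjusted p of 0.348 per the authors' deposited table. Fbp1, fructose-1,6-bisphosphatase (chromosome 13, 62966113 to 62989596, minus strand, mm9), had 504 RPKM in male liver and 583 RPKM in female liver. At a normalized log2 ratio of -0.32 and an adjusted p of 0.0921 per the authors' deposited table, it came nearest to the threshold of the 6 genes not called. The 2 genes exchanged places as the most abundant of the 10, Pck1 being first in male and Fbp1 in female liver. In male liver their counting intervals overlapped, at 507 to 523 RPKM for Pck1 and 493 to 515 RPKM for Fbp1, and in female liver they did not, at 481 to 495 RPKM for Pck1 and 573 to 593 RPKM for Fbp1.

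G6pc, the catalytic subunit of glucose-6-phosphatase, which releases free glucose (chromosome 11, 101229044 to 101239217, plus strand, mm9), had a log2 RPKM of 7.59 in male liver and 7.65 in female liver. Its normalized log2 ratio of -0.10 was the smallest in size among the 10 genes (adjusted p = 0.597 per the authors' deposited table). Pcx, pyruvate carboxylase, which makes oxaloacetate from pyruvate in mitochondria (chromosome 19, 4510472 to 4621752, plus strand, mm9), had a log2 RPKM of 6.36 in male liver and 6.10 in female liver. Its normalized log2 ratio was 0.24 with an adjusted p of 0.205 per the authors' deposited table. Per length, Pck1 stood at 2.67 times G6pc and 6.26 times Pcx in male liver, and at 2.44 times and 7.10 times in female liver. The order of the enzymes from Fbp1 and Pck1 through G6pc to Pcx was thus shared by both sexes, apart from the exchange of the first 2.

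A call missed at this threshold does not show equal levels. Among genes near the level of Pck1, the smallest called difference was 0.37 on the log2 scale and the largest not called 0.36, so that a difference under about that size was not called there. The differences of Pck1, Fbp1, G6pc and Pcx all lie below this limit, at 0.10 to 0.32. Counting error is smaller: the counting interval excluded a ratio of 1 for 9 of the 10 genes, among them 5 of the 6 not called. For Fbp1, on about 8377 male and 12688 female implied reads, counting alone allows a level 1.13 to 1.19 times as high in female liver. The authors' normalized 1.24-fold for Fbp1 lies outside that interval, which uses implied depth in place of the authors' normalization. For Pcx, counting alone allows a level 1.14 to 1.25 times as high in male liver. Of the 10 genes, 7 had a normalized ratio inside their counting interval.

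Ppargc1a (PGC-1α), the coactivator that fasting induces in liver and that raises transcription of gluconeogenic genes (chromosome 5, 51845488 to 51945160, minus strand, mm9), was the least abundant of the 10 genes. It had 2.01 RPKM in male liver and 2.18 RPKM in female liver, and its normalized log2 ratio was -0.14 with an adjusted p of 0.571 per the authors' deposited table. With about 145 male and 207 female implied reads, counting alone allows a male over female ratio from 0.737 to 1.14. The smallest called difference among genes near its level was 0.48 on the log2 scale and the largest not called 1.96. It lay at the lower end of expressed genes in both sexes, at rank 9342 of all entries in male and 9250 in female liver, whereas Pck1 was at rank 108 and 110.

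**Figure D3:**
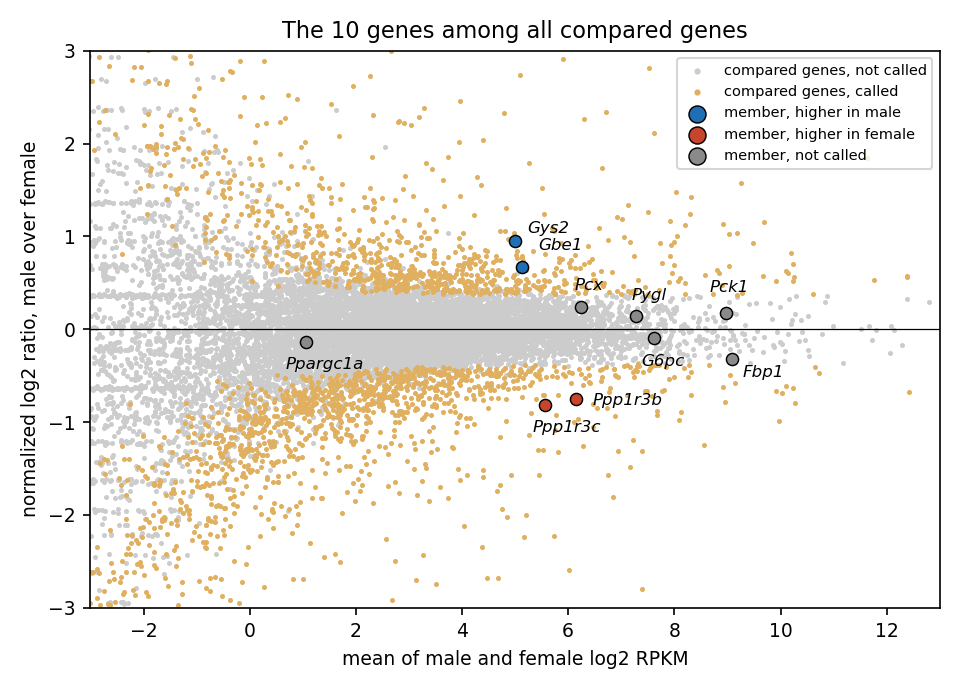
Normalized log2 ratio, male over female (vertical axis), against mean log2 RPKM of both sexes (horizontal axis) for all compared genes with a level, with called genes in orange and the 10 genes as outlined circles. Gys2, Gbe1, Ppp1r3b and Ppp1r3c lie among the called genes outside the grey band, the 6 others inside it; the axes run from -3 to 13 and from -3 to 3 and leave out 856 genes.

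Close relatives of the enzymes among the 10 genes were low or not detected in both sexes. Gys1, the muscle isoform of glycogen synthase, had a log2 RPKM of -0.09 in male liver and 0.17 in female liver. Among phosphorylases, the brain isoform Pygb stood at 0.50 in male and 0.69 in female liver and the muscle isoform Pygm at -0.36 and -1.07, all as log2 RPKM. Fbp2 and G6pc2 lay at the floor of the scale, at which no reads are implied, in both sexes. Both carry a ratio of 1 and an adjusted p of 0.026 per the authors' deposited table, and as floor entries they were not among the compared genes. G6pc3, the widely expressed glucose-6-phosphatase, had a log2 RPKM of 1.66 in male and 1.92 in female liver (adjusted p = 0.229 per the authors' deposited table). Of the relatives that were compared, Pck2, the mitochondrial carboxykinase, passed the threshold and was 2.17-fold higher in female liver per the authors' deposited table (adjusted p = 0.0309), at a log2 RPKM of -1.56 in male and -0.56 in female liver. The relatives are named here for their kinship, outside the rule for naming genes.

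Other genes of glycogen metabolism differed in single places. None of the 11 other synthesis genes passed the threshold (median log2 ratio -0.01). Slc2a2, the hepatic glucose transporter, had a log2 RPKM of 7.13 in male and 6.97 in female liver. Of 15 other genes of breakdown, 3 were called, all 3 with male liver higher, and the list's median log2 ratio was -0.04. Over all compared genes, 7.21% were higher in male liver. Stbd1, which tethers glycogen to membranes and is linked to its delivery to lysosomes, was 1.96-fold higher in male liver (adjusted p = 1.76e-06) per the authors' deposited table, with a log2 RPKM of 5.35 in male and 4.38 in female liver. Its level and ratio were close to those of Gys2. Phka1, the muscle-type regulatory subunit of phosphorylase kinase, was 1.43-fold higher in male liver (adjusted p = 0.0369) per the authors' deposited table.

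The phosphatase that the targeting subunits bind gave 1 call. Of 6 compared genes for catalytic and other targeting subunits, Ppp1ca, a catalytic subunit, was 1.43-fold higher in female liver (adjusted p = 0.00803) per the authors' deposited table, with 84.3 RPKM in male and 117 RPKM in female liver. Ppp1cb, another catalytic subunit, had a log2 RPKM of 6.54 in male and 6.49 in female liver and was not called. The other glycogen-targeting subunits were low: the highest, Ppp1r3f, had a log2 RPKM of 1.69 in male and 1.79 in female liver, and Ppp1r3a lay at the floor in both sexes. Among all the glycogen-targeting subunits on the list, Ppp1r3b and Ppp1r3c were thus the abundant ones in both sexes.

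Around gluconeogenesis, other enzymes, carriers and genes of precursor supply made a list of 32 compared genes, of which 3 had higher levels in male liver and 6 in female liver (median log2 ratio -0.03). The shares over all compared genes were 7.21% and 10.2%. The female-higher genes included Got1, the cytosolic aspartate aminotransferase (1.91-fold, adjusted p = 9.51e-07), and both subunits of the mitochondrial pyruvate carrier, listed under their older symbols Brp44 (Mpc2, 1.65-fold, adjusted p = 0.000189) and Brp44l (Mpc1, 1.54-fold, adjusted p = 0.00381), per the authors' deposited table. Brp44 had a log2 RPKM of 7.25 in male and 7.93 in female liver, and Got1 6.44 in male and 7.34 in female liver. The other female-higher genes were Pck2, Slc16a1, a lactate and pyruvate transporter, and Slc37a2, of the sugar phosphate transporter family, at -1.47 in male and -0.28 in female liver on the log2 RPKM scale. Higher in male liver were Slc37a1, of the same family (1.78-fold), Sdsl, a serine dehydratase relative (1.52-fold), and Slc38a4, an amino acid transporter (1.47-fold), per the authors' deposited table.

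Regulators of the pathway were called in both directions. Of 33 compared transcription factors and coregulators, 5 had higher levels in male liver and 1 in female liver (median log2 ratio 0.03). The CREB coactivator Crtc3 (1.56-fold), the hepatocyte factors Onecut1 (1.54-fold), Foxa1 (1.52-fold) and Foxa3 (1.44-fold), and Cebpb (1.48-fold) were higher in male liver per the authors' deposited table. Pprc1, a relative of Ppargc1a, was 1.48-fold higher in female liver (adjusted p = 0.0368) per the authors' deposited table. Among 32 genes of glucagon, catecholamine and insulin signalling, 3 were called in each direction (median log2 ratio 0.02). Trib3 (1.67-fold) and Trib1 (1.56-fold), pseudokinases, and Adcy9, an adenylyl cyclase (1.39-fold), were higher in male liver per the authors' deposited table. The phosphodiesterase Pde4b (1.56-fold), the insulin receptor substrate Irs1 (1.54-fold) and Sik1, a kinase that restrains CREB coactivators (1.49-fold), were higher in female liver per the authors' deposited table. Of 18 opposing genes of glycolysis and pyruvate use, 2 were called: Hk3, a hexokinase, was 2.53-fold and Pdk4, which inhibits pyruvate dehydrogenase, 1.69-fold higher in female liver per the authors' deposited table. The Hk3 ratio rests on low levels, with a log2 RPKM of -0.79 in male and 0.48 in female liver.

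Over these 7 lists together, 14 of 145 compared genes had higher levels in male liver and 13 in female liver, each gene counted once. That is 9.66% and 8.97%, or 18.6% in either direction, against 17.4% of all compared genes. The pathway genes as a whole were therefore called about as often as other genes.

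**Figure D4:**
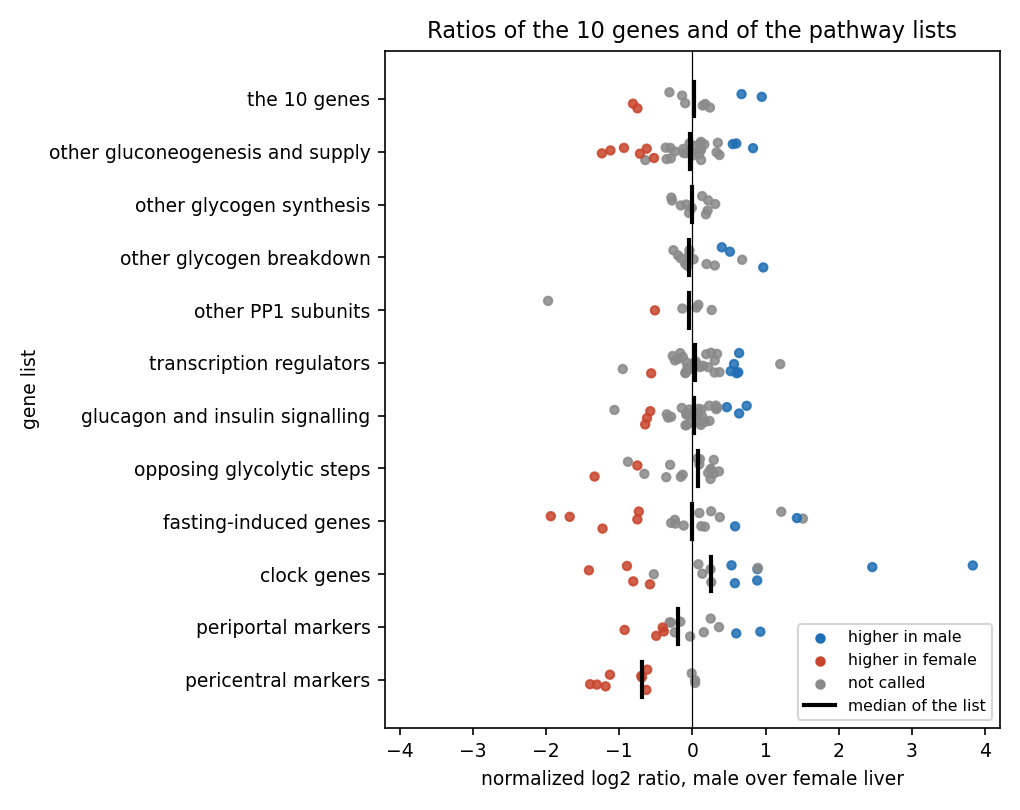
Normalized log2 ratios of male over female liver (horizontal axis) for the compared genes of 12 lists, 1 point per gene, coloured by call, with the list median as a black bar. Medians of the pathway lists lie within 0.1 of 0, those of the clock genes at 0.25 and of the pericentral markers at -0.69.

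Clock genes and genes induced by fasting gave calls in both directions in the same RNA. Of 16 compared clock genes, 6 had higher levels in male liver and 4 in female liver, against 7.21% and 10.2% of all compared genes. Bhlhe41 (14.25-fold), Dbp (5.49-fold), Per3 (1.85-fold) and Nr1d1 (1.85-fold) were higher in male liver, and Npas2 (2.67-fold), Cry1 (1.86-fold) and Arntl (1.75-fold) in female liver, per the authors' deposited table. The Bhlhe41 ratio rests on low levels, with a log2 RPKM of 1.52 in male and -2.07 in female liver. Gys2 is a known target of the clock in mouse liver. The part of the clock genes in the differences of Gys2, Gbe1, Ppp1r3b and Ppp1r3c was not tested. Of 18 genes known to be induced by fasting, 2 had higher levels in male liver and 5 in female liver (median log2 ratio -0.01). Cyp4a14 (3.83-fold), Cyp4a10 (3.20-fold) and Igfbp1 (2.34-fold) were higher in female liver, and Asns (2.69-fold) and Lpin2 (1.5-fold) in male liver, per the authors' deposited table. Asns was low, at a log2 RPKM of 0.19 in male and -1.14 in female liver. Feeding state and its part in the results were not tested.

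Hepatocytes differ along the lobule, and gluconeogenic enzymes are known to be more abundant around the portal vein. Of 14 periportal markers other than the 10 genes, 2 had higher levels in male liver and 4 in female liver (median log2 ratio -0.20). Of 11 pericentral markers, all 8 that were called had higher levels in female liver (median log2 ratio -0.69), among them Lgr5 (2.64-fold), Lect2 (2.47-fold) and Oat (2.28-fold), whereas Cyp2e1 and Cyp1a2 were not called, per the authors' deposited table. The part of zonation in the results was not tested.

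The RNA had the profile of liver. The 10 hepatocyte markers had log2 RPKM values of 7.29 to 14.83 in male and 7.38 to 15.52 in female liver. Of 10 markers of fat, muscle and pancreas, 7 lay at the floor, the pancreatic Prss1, Ins1 and Ins2 among them. Cpa1, a pancreatic carboxypeptidase gene, was 31.25-fold higher in male liver per the authors' deposited table. Its log2 RPKM was 1.58 in male and -2.96 in female liver. Outside the lists, the pancreatic genes Cpb1, Clps and Pnlip were also called as higher in male liver, at normalized log2 ratios of 6.41, 4.41 and 4.01. The part of pancreatic RNA in the results was not tested. Xist had a log2 RPKM of -2.52 in male and 6.87 in female liver, and all 4 Y-linked genes examined were higher in male liver, as the labels say. Among markers of other liver cells, 4 of 8 Kupffer cell genes were called as higher in female liver (summed level 152 RPKM in male and 191 RPKM in female liver). So were 5 of 9 stellate cell genes (103 and 147 RPKM) and 1 of 8 endothelial genes (148 and 162 RPKM). No gene of these 3 lists was called as higher in male liver. Over all compared genes, 10.2% were higher in female and 7.21% in male liver, so the endothelial count is near the share over all genes. Bile duct markers gave 1 call in each direction of 6, and blood and lymphoid markers 2 higher in female liver of 10. The part of these cells in the results was not tested. Implied depth was 11241814 reads in male and 14719686 reads in female liver.

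Few entries share their position with these genes. Another entry overlaps 3 of the 10 genes in the table, on the opposite strand in each case: Lrfn4 in Pcx and 4930423O20Rik in Gbe1, both at the floor in both sexes, and F730035M05Rik at Pygl, with a log2 RPKM of -1.87 in male and -2.67 in female liver.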

How the data were processed

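Liver RNA of 2 male and 2 female pools of 6 livers was sequenced as 4 libraries. Bowtie, edgeR and mm9 are named in the submitters' processing notes, without roles or versions; the sources used here do not give how reads were counted. Per the file headers, the deposited table holds the authors' log2 RPKM per sex, their normalized log2 ratio (male over female), its linear ratio, a signed fold change (a score, negative for genes higher in female liver), an adjusted p-value for the sex difference and a flag for a log2 RPKM of at least 1. The 2 pools of a sex share 1 value, so no gene was tested anew; its p-values can reflect at most the spread between pools, not between single mice.

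Calls rest on an adjusted p under 0.05 in that table. Of 21827 entries, 6590 at the floor in both sexes, 14 without level and ratio and 1460 with reads in 1 sex and a ratio of 1 were not compared. Depth was implied from 1058 olfactory receptor genes at the floor as 11241814 male and 14719686 female reads. The value at the floor was taken as 1 read added to none observed. Implied reads use GENCODE vM21 transcript lengths, by accession for 8 genes and by symbol for Pygl and Ppp1r3c. Of 4668 floor genes with a length, 74.2% matched it within 2%, so implied reads are approximate. Intervals are 95% exact, Clopper-Pearson for ratios and Poisson for levels. In simulated counts of male over female liver at known folds, 94.5% of 200 intervals held the fold. The counts were drawn under the model that the interval assumes, without spread between pools or error in length. They therefore check the calculation and not its fit to these data.

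The members and lists were chosen with earlier results of these data known. Of the list genes, 5 were matched through older symbols and 11 were not found. Genes were named by rule: the 10 genes, then up to 6 called genes per pathway list by size of ratio, or the 2 of highest level, and up to 3 per marker list; values of named genes are given where they bear on the text. Some genes that the rule names are not reported here. Promoters are from RefSeq (GRCm38.p6); coordinates of genes are those of the table (mm9), with a 1-based start. The alternatives tried were other thresholds on p, level and fold, and other scales of the ratio. Python 3.11.15, pandas 2.3.3, numpy 2.4.6 and scipy 1.17.1 were used.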

Additional observations from a re-analysis of the deposited data

How the results depend on the processing

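Gys2 and Gbe1 as higher in male liver, and Ppp1r3b and Ppp1r3c as higher in female liver, were called at an adjusted p under 0.01, among genes at a log2 RPKM of at least 1 and at 1.5-fold or more as well. The limits on level and fold could not remove any of these calls. Their folds were all at least 1.59, and all 10 genes had a log2 RPKM of at least 1. Among compared genes at that level, 17.2% were called in either direction, and at 1.5-fold or more 13.5% of all compared genes were. At an adjusted p under 0.1, Fbp1 became the third gene higher in female liver. At that threshold 13.4% of compared genes were higher in female liver, and 23.3% were called in either direction. The plain difference of levels, the same centred on its median, and 1 RPKM added before the log2 kept the direction of all 10 genes (30 of 30 values), and on each of these scales 3 genes moved by more than counting error. The added 1 RPKM cannot reverse the sign of a plain difference. The centring shifted values by only 0.004, where the plain difference smallest in size was -0.053 (G6pc). These 2 scales were thus bound to repeat the plain directions, and only the plain difference tests direction. By the plain difference, Pck1 was at 0.08 against a normalized 0.17, Fbp1 at -0.21 against -0.32 and Ppp1r3c at -0.67 against -0.81; the cause was not tested. At an adjusted p under 0.01, 7 pathway genes other than the 10 were higher in male liver in place of 14, and 9 higher in female liver in place of 13. Among pathway genes at a log2 RPKM of at least 1, 14 were higher in male liver, as before, and 10 in female liver in place of 13. Pools share 1 value per sex, so leaving out a pool was not possible and error between pools is unknown here. No paired analysis was possible because the table gives 1 value per sex and the labels pair no pools.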

Other observations

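The authors' normalized ratio and the plain difference of their log2 RPKM values part for some of the 10 genes more than for most expressed genes. Over 9733 expressed genes, the normalized minus the plain value had a median of -0.03 and a central 95% from -0.12 to 0.07 on the log2 scale. For Pck1 it was 0.10, above 98.8% of these genes, and for Ppp1r3c -0.15, above 1.20% of them. For Fbp1 it was -0.11, above 4.56%, and for Gys2 -0.03, above 44.1%. Pck1 and Ppp1r3c therefore lie outside the central 95% at opposite ends.

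Among the most similar in level to G6pc, 60 of 226 genes (26.5%) were called, against 161 of 1194 (13.5%) near Gys2. Near G6pc, 72.6% of genes had a larger ratio in either direction than G6pc itself; near Pck1, 36 of 72 genes had a larger one than Pck1.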
